A study of Mus musculus with 19 samples.

Results

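The genes described here are 2 MYC family transcription factor genes, Myc and Mycn, and 3 genes of ribosome production, Rrp12, Dkc1 and Nop58, in cells sorted from mouse skin squamous cell carcinoma. They were chosen by name, with earlier results of these data known, as a set of 5 genes. Of these, 4 have a row in the authors' deposited table of expression ratios, which holds 1609 genes. Myc has no row there, and its expression ratio is not analysed here. The authors named the table as one of differentially expressed genes, so its rows are chosen ones. Counts and tests on these ratios may reuse the values by which rows were kept. A missing row for Myc is no measure of its expression. Its values come instead from the authors' mutation calls, copy number calls and lists of accessible and Smad2/3-bound sites.

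The series describes 19 samples in 10 groups, all of C57BL/6 skin squamous cell carcinoma. RNA and ATAC samples came from allografts grown after intradermal injection of 10000 cells. RNA was sequenced from quiescent cells (CD71lo H2BGFPhi), double negative cells (CD71lo H2BGFPlo) and proliferative cells (CD71hi H2BGFPlo) of tumours SCC1 and SCC2, with 100000 sorted cells per library and 1 library per population and tumour. CD71 is the transferrin receptor, encoded by Tfrc, and H2BGFP is a fluorescent histone that is diluted as cells divide. ATAC-seq, which maps open chromatin, used 50000 cells of the same populations, of double positive cells, and of SCC3, a tumour labelled Tgfbr2KO. Smad2/3 ChIP-seq used cultured SCC1 cells in 50 uM calcium that had received TGFβ1 at 5 ng/mL for 1 h, and input DNA came from SCC1 and SCC2 cells handled alike. The labels name neither the driver of tumour formation nor the number of animals behind each library. The 3 RNA populations were sorted from the same tumours, so each ratio is between fractions of 1 tumour.

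MYC family proteins bind DNA as partners of MAX and raise transcription of genes for growth, among them genes for making ribosomes. Ribosomal RNA is transcribed in the nucleolus, cut from a long precursor, chemically modified under the guidance of small nucleolar RNAs, and assembled with ribosomal proteins into the small and the large subunit. Cells that divide fast use large numbers of new ribosomes, and MYC is among the best known regulators of growth in skin keratinocytes and in many carcinomas. Mycn is the family member known for its part in embryonic tissues and neuroblastoma. Nop58 is a core protein of the box C/D particles that methylate ribosomal RNA. Dkc1 encodes dyskerin, the pseudouridine synthase of the box H/ACA particles and a component of telomerase. Rrp12 is known in yeast and human cells as a factor for maturation and export of the ribosomal subunits.

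The stretches upstream of the start sites of Mycn, Dkc1 and Nop58 are shown because all of their bases lay in merged ATAC peaks. The sequences are from RefSeq on GRCm38.p6, the 250 bases before each start site, written 5′ to 3′ on the strand of the gene. Capitals mark letters of E2F sites (TTTCCCGC, TTTGGCGC, TTTCGCGC or TTTGCCGC, either strand) and of the short Smad sequence CAGAC (either strand). Promoters of 3 of the 5 genes were matched in the RefSeq table, the other two being Myc and Rrp12.
Mycn: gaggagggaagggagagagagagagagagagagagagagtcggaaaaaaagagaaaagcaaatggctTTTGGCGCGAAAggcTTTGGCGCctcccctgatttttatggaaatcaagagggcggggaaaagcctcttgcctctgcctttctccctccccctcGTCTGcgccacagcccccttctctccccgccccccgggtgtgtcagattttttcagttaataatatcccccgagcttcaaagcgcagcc
Dkc1: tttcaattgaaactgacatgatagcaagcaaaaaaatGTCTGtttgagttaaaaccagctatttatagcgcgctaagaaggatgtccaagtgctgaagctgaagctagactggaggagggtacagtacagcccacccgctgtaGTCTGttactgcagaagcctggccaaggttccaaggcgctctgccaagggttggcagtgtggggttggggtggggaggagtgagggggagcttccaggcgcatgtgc
Nop58: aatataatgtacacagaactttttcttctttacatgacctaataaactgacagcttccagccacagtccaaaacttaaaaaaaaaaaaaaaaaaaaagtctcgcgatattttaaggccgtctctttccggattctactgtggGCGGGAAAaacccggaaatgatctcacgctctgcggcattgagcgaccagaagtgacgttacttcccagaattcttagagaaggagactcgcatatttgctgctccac

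The Mycn stretch, at chr12:12941837-12942086 on the minus strand, lay inside an accessible peak at chr12:12941651-12942200. It held TTTGGCGC at 183 and at 168 bases before the start site, and GCGCGAAA at 179 bases, which overlaps the first of them, each position counted to the first letter of the match. GTCTG lay at 89 bases. The Nop58 stretch, at chr1:59684756-59685005 on the plus strand, lay inside a peak at chr1:59684651-59685250 and held GCGGGAAA at 108 bases. This stretch runs past chr1:59684961, the lower end of Nop58 used for the peak windows below. The 108 bases are therefore counted to a start site inside that gene span. The Dkc1 stretch, at chrX:75095604-75095853 on the plus strand, lay inside a peak at chrX:75095301-75096300 and held GTCTG at 213 and at 107 bases, with no E2F letters. E2F letters stood in 2.35% of 21263 RefSeq promoter stretches of the same length, and CAGAC or GTCTG in 40.9%. The E-box CACGTG, which MYC and MAX bind, stood in 6.63% of them, CACGCG or CGCGTG in 9.99%, and CCAAT or ATTGG in 35.4%. None of these last 3 motifs was in the 3 stretches printed here, which says only that these letters are not in these windows. G and C made up 54.8% of the Mycn stretch, 52% of the Dkc1 stretch and 41.2% of the Nop58 stretch, beside a median of 55.6% over all stretches.

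The study first asked in what way quiescent cells, which keep the label, differ from fast-dividing cells of the same tumour. In both tumours all 4 genes with a ratio had less RNA in quiescent than in proliferative cells. Their deposited log2 ratios were at -1 or below in SCC1 and in SCC2, a level that 23.3% of all 1609 genes reached in the same direction. The set was chosen with earlier results of these data known, so its count beside that share is no independent result. None of the 4 passed limma's moderated test at an adjusted p of 0.05, a threshold that 0.994% of the table's genes passed in either direction. At an unadjusted limma p under 0.05 all 4 were called, as were 26.0% of the table's genes. In bulk samples like these, fewer cells of a type and less RNA per cell cannot be told apart.

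Mycn had log2 ratios of -1.88 in SCC1 and -1.51 in SCC2 for quiescent against proliferative cells per the authors' deposited table. The SCC1 value corresponds to 3.69-fold less Mycn RNA in quiescent cells. Across the table, 17.0% of genes in SCC1 and 15.9% in SCC2 had a ratio as low as that of Mycn or lower. The mean of the Mycn ratios was -1.70 with a limma standard error of 0.29 (adjusted p = 0.172 by limma, lower in 2 of 2 tumours). Rrp12 had log2 ratios of -1.16 in SCC1 and -1.82 in SCC2 per the authors' deposited table, so that the larger of its values came from SCC2, unlike Mycn. The SCC2 value of Rrp12 is 3.53-fold less RNA in quiescent cells, and 9.26% of genes were as low or lower there, against 29.9% in SCC1. The mean for Rrp12 was -1.49 with a standard error of 0.34 (adjusted p = 0.172 by limma).

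The snoRNP genes Dkc1 and Nop58 lay close together and varied little between tumours. Dkc1 had log2 ratios of -1.08 in SCC1 and -1.02 in SCC2 for quiescent against proliferative cells per the authors' deposited table. Nop58 had -1.09 in SCC1 and -1.07 in SCC2 in the same comparison of the authors' deposited table. These are values just past the size of 1 used for the counts, and the smallest fold of the set, 2.02-fold less Dkc1 RNA in SCC2, is near it. Tumours differed by 0.07 for Dkc1 and 0.02 for Nop58 on the log2 scale, and by 0.38 for Mycn and 0.66 for Rrp12. The limma means were -1.05 for Dkc1 and -1.08 for Nop58, each with a standard error of 0.26 and an adjusted p of 0.172. Over the alternatives run, the adjusted p of the 4 genes in this comparison stayed between 0.0696 and 0.356.

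The middle of the table was itself below 0, with median log2 ratios of -0.61 in SCC1 and -0.49 in SCC2 per the authors' deposited table. With these medians subtracted, the direction of the 4 genes was the same but their size was smaller. Mycn then had -1.28 in SCC1 and -1.01 in SCC2, and it was the 1 member still at -1 or below in both tumours. Rrp12 had -0.56 and -1.33, Dkc1 had -0.48 and -0.52, and Nop58 had -0.48 and -0.58 in SCC1 and SCC2. The same subtraction turned the split of all genes past a size of 1 in both tumours, which was 375 lower and 182 higher as deposited (67.3% lower), to 175 lower and 436 higher (28.6% lower). For double negative against proliferative cells the lower share of such genes was 61.9% as deposited and 38.6% with medians subtracted, and for quiescent against double negative cells 63.8% and 52.3%. The labels do not say how the authors scaled the libraries, so directions are relative to that scaling.

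**Figure D1:**
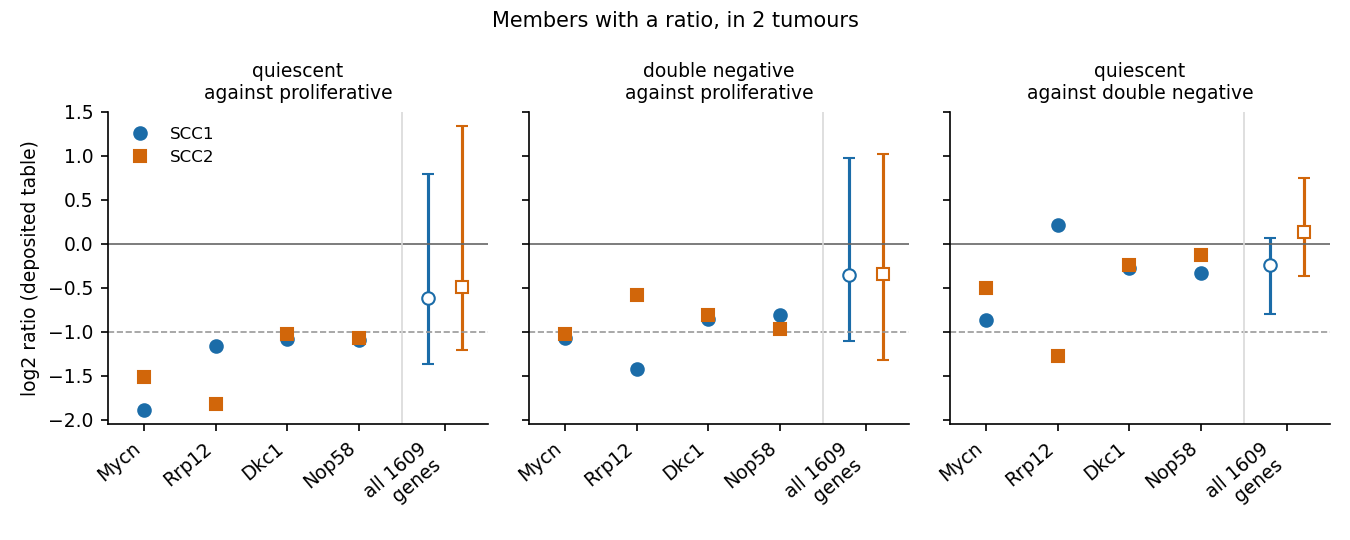
Deposited log2 ratio (vertical axis) of the 4 genes with a ratio in each comparison, with circles for SCC1 and squares for SCC2, and at the right of each panel the median and middle 50% of all 1609 genes. The dashed line is at -1: all points of the first panel lie under it, and in the third panel Rrp12 lies on opposite sides of 0 in the tumours.

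Double negative cells, which are low in both the label and CD71, were also compared with proliferative cells. Mycn, Dkc1 and Nop58 fell in double negative cells by limma, and Rrp12 did not pass the test. By the rule of -1 or below in both tumours, Mycn alone of the 4 was counted, against 25.2% of all genes in that direction. By limma, 3 of 4 were lower at an adjusted p under 0.05, against 30.3% of the table's genes in that direction. The same proliferative libraries serve in both comparisons, so the 2 sets of ratios are not independent. The submitters' notes name mm9 beside mm10 for the double negative libraries, and any effect on ratios that use them could not be checked.

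Mycn had log2 ratios of -1.07 in SCC1 and -1.02 in SCC2 for double negative against proliferative cells per the authors' deposited table (adjusted p = 0.0443 by limma on the mean of -1.04 ± 0.15, standard error). Dkc1 had -0.85 in SCC1 and -0.80 in SCC2 per the authors' deposited table (adjusted p = 0.0483 by limma). Nop58 had -0.80 in SCC1 and -0.97 in SCC2 per the authors' deposited table (adjusted p = 0.0481 by limma). Each of these 3 genes had nearly the same size in both tumours. Rrp12 had -1.42 in SCC1 and -0.58 in SCC2 per the authors' deposited table, the reverse of its order in quiescent against proliferative cells, where SCC2 was lower (adjusted p = 0.0931 by limma). All 3 calls sat near the threshold and were lost in the fit over all 3 populations, where Mycn, Dkc1 and Nop58 had an adjusted p of 0.0705 each, and with column medians subtracted, where it was 0.0618, 0.105 and 0.0953. Across all alternatives the adjusted p ranged over 0.0350 to 0.0705 for Mycn, 0.0418 to 0.105 for Dkc1 and 0.0404 to 0.0953 for Nop58.

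The CD71-low populations, quiescent and double negative, differ in label retention and were set against each other. None of the 4 genes passed limma's test (adjusted p = 0.998 for each), a threshold that 0.435% of the table's genes passed in either direction. None was at -1 or below in both tumours, where 2.30% of all genes were. At an unadjusted limma p under 0.05, 2.98% of the table's genes were called and none of the members was. Mycn was lower in quiescent cells in both tumours, with log2 ratios of -0.86 in SCC1 and -0.50 in SCC2 per the authors' deposited table. Dkc1 had -0.27 and -0.24, and Nop58 had -0.33 and -0.12, in SCC1 and SCC2 of the authors' deposited table. Rrp12 differed in sign between tumours, at 0.22 in SCC1 and -1.27 in SCC2 per the authors' deposited table. So 3 of 4 genes were lower in both tumours at any size, as were 30.0% of all genes.

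Tfrc and Mki67 give the scale of the sort and of division beside these values. Tfrc, whose protein was used for sorting, had log2 ratios of -1.72 in SCC1 and -1.55 in SCC2 for quiescent against proliferative cells per the authors' deposited table, near those of Mycn. Mki67, a protein of dividing cells, had -5.90 in SCC1 and -2.28 in SCC2 per the authors' deposited table, larger in size than any member's ratio in the same tumour. For quiescent against double negative cells Mki67 had -1.54 in SCC1 and 0.85 in SCC2 per the authors' deposited table, so in SCC2 quiescent cells had more of it. A list of 29 cell division genes, 28 with a row, had median log2 ratios of -3.73 in SCC1 and -1.57 in SCC2 for quiescent against proliferative cells, and -2.88 and -2.94 for double negative against proliferative cells, per the authors' deposited table. Between quiescent and double negative cells the medians of that list had opposite signs, -0.85 in SCC1 and 1.10 in SCC2. Rrp12 also changed sign, the other way, at 0.22 in SCC1 and -1.27 in SCC2. Mycn, Dkc1 and Nop58 were below 0 in both tumours, but none of the 4 genes passed limma there (adjusted p = 0.998 for each). The part of cell division in the ratios of the 4 genes was not tested.

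Markers of other cell types also had ratios far from 0, and these differed between the tumours. Of 19 fibroblast markers, 12 have a row, with median log2 ratios for quiescent against proliferative cells of 0.08 in SCC1 and 4.35 in SCC2 per the authors' deposited table. Their values ranged from -0.44 to 2.75 in SCC1 and from 2.54 to 5.38 in SCC2. Of 21 immune markers, 9 have a row, and medians were -0.38 in SCC1 and 2.87 in SCC2 for quiescent against proliferative cells per the authors' deposited table. For double negative against proliferative cells the fibroblast medians were 2.69 in SCC1 and 1.34 in SCC2, the immune medians 1.17 and 0.42, and those of the 3 endothelial markers with a row, of 9 listed, 3.34 and 1.63, per the authors' deposited table. Between quiescent and double negative cells the fibroblast medians were -2.72 in SCC1 and 3.14 in SCC2. Of the fibroblast markers, Dcn alone was below 0 in both tumours, at -1.68 in SCC1 and -0.13 in SCC2. Rrp12 also differed in sign between the tumours, in the opposite sense to the medians. Such a difference was common, as 46.4% of all genes had the same sign in both tumours there. The part of these markers in the ratios of the 4 genes was not tested. Of 16 keratinocyte identity genes, Epcam alone has a row (-3.21 in SCC1 and -0.40 in SCC2 for quiescent against proliferative cells per the authors' deposited table), and with no levels in the table the epithelial identity of the cells could not be checked.

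**Figure D2:**
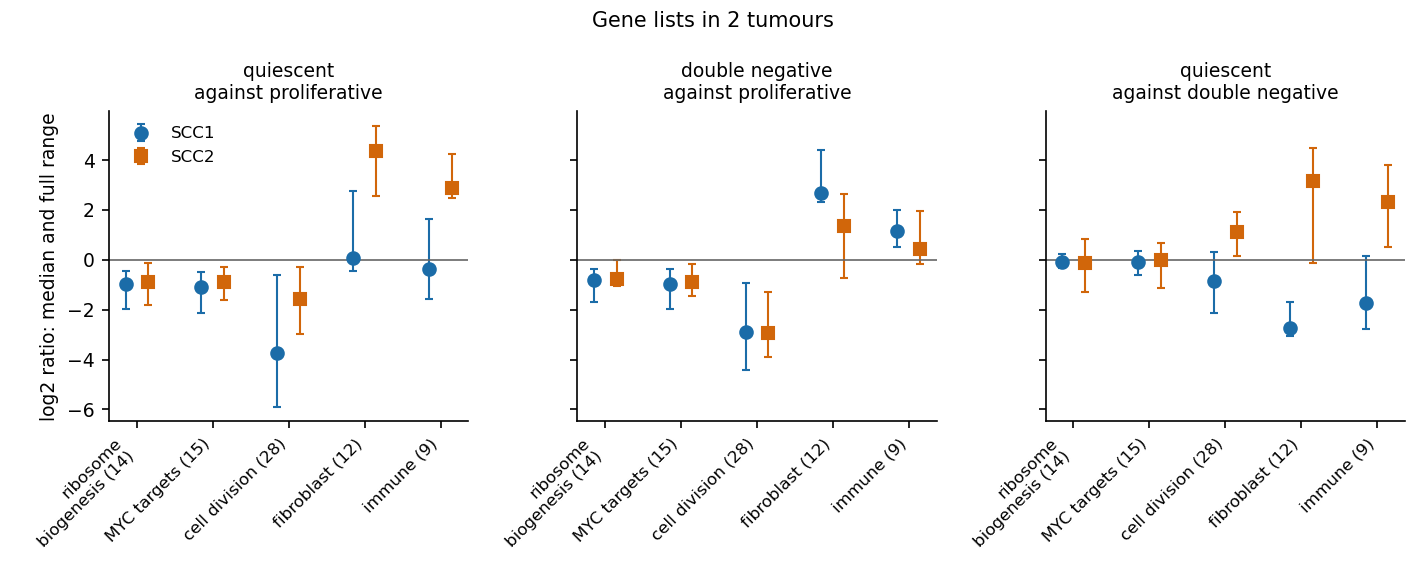
Median (symbol) and full range (line) of the deposited log2 ratios of 5 gene lists in each comparison, circles for SCC1 and squares for SCC2, with the number of genes with a row in brackets. Medians of the ribosome and MYC target lists lie below 0 in both tumours, and those of the fibroblast and immune lists are near 0 in SCC1 and above 2 in SCC2 for quiescent against proliferative cells.

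The wider pathway was described with 7 lists of 250 genes: the MYC network, 5 steps of ribosome production, and known MYC targets outside the ribosome. Of these, 31 genes have a row, members included. All 31 were lower in quiescent than in proliferative cells in both tumours at any size, as were 52.3% of all genes in the table. Listed genes without a row have no ratio here, so the counts cover only genes that the authors kept. At -1 or below in both tumours were 7 of the 31, or 3 of the 27 that are not members, beside 23.3% of all genes. None of the 31 passed limma, and 7 were called at an unadjusted p under 0.05. Median log2 ratios of the 31 were -1.07 in SCC1 and -0.87 in SCC2 per the authors' deposited table, below the medians of all genes given above. Against proliferative cells, double negative cells also had less RNA of all 31 genes in both tumours, as of 50.9% of all genes. By the size rule, 7 of the 31 were at -1 or below in both tumours, beside 25.2% of all genes. By limma, 15 of the 31 fell (48.4%, beside 30.3% of all genes). The number past limma's threshold was 4 with medians subtracted, 9 with a robust prior, and 0 in the fit over all 3 populations. Between quiescent and double negative cells 16 of the 31 were lower and 5 higher in both tumours, beside 30.0% and 16.3% of all genes, and none passed limma (0 at an unadjusted p under 0.05). With medians subtracted, 24 of the 31 were lower in both tumours in quiescent and 28 in double negative cells against proliferative cells, and 7 lower and 6 higher in quiescent against double negative cells.

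Of the MYC network, Mxd3 is the other gene with a row, of 18 listed. Mxd3 belongs to the MXD proteins, which compete with MYC for MAX, and it had log2 ratios of -1.37 in SCC1 and -0.68 in SCC2 for quiescent against proliferative cells per the authors' deposited table. It fell in double negative against proliferative cells, with -1.64 in SCC1 and -2.09 in SCC2 per the authors' deposited table (adjusted p = 0.0386 by limma). Against double negative cells Mxd3 was higher in quiescent cells of both tumours, at 0.22 in SCC1 and 1.37 in SCC2 per the authors' deposited table, where Mycn was lower. That difference between the genes was not tested.

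Ribosome production was covered by 5 lists of 184 genes, of which 14 have a row, Rrp12, Dkc1 and Nop58 among them. All 14 had less RNA in quiescent cells in each tumour, as had 52.3% of all genes, and 10 of the 14 did with medians subtracted. The 3 at -1 or below in both tumours, a level that 23.3% of all genes reached, were the members themselves and none of the other 11. Medians of these 11 were -0.88 in SCC1 and -0.85 in SCC2 per the authors' deposited table. In rRNA transcription, Polr1a, the largest subunit of RNA polymerase I, had -0.84 in SCC1 and -0.85 in SCC2, and Nolc1, a nucleolar phosphoprotein that chaperones snoRNPs, had -0.97 and -0.76, per the authors' deposited table. In small subunit assembly, Pno1, which acts late in the maturation of its RNA, had -0.92 in SCC1 and -0.66 in SCC2 per the authors' deposited table. Dimt1, a ribosomal RNA dimethyltransferase, had -0.45 in SCC1 and -1.78 in SCC2 per the authors' deposited table. Like Rrp12 it was lower in SCC2, and its quiescent against double negative ratios were -0.13 in SCC1 and -1.16 in SCC2. The helicase Ddx52 had -0.45 in SCC1 and -0.95 in SCC2 per the authors' deposited table.

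In large subunit assembly, the AAA ATPase Mdn1 had log2 ratios of -0.88 in SCC1 and -0.94 in SCC2, and nucleolin, Ncl, had -0.76 and -0.85, for quiescent against proliferative cells per the authors' deposited table. Lyar, a nucleolar protein of cell growth, had -1.16 in SCC1 and -0.65 in SCC2 per the authors' deposited table. In RNA processing, the exosome nuclease Dis3 had -1.14 in SCC1 and -0.91 in SCC2, and Pop1, a subunit of RNase P and RNase MRP, had -1.98 and -0.15, per the authors' deposited table. For double negative against proliferative cells, 3 of the 14 passed limma, namely Dis3, Dkc1 and Nop58, with Dis3 at -1.07 in SCC1 and -0.83 in SCC2 per the authors' deposited table (adjusted p = 0.0481 by limma). The 3 of 14 are 21.4%, beside 30.3% of all genes called lower, and none of the 14, Dis3 included, passed with medians subtracted, with a robust prior or in the fit over all 3 populations. Medians of the 14 were -0.80 in SCC1 and -0.76 in SCC2 in that comparison.

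MYC targets outside the ribosome had 15 of 48 genes with a row. All 15 had less RNA in quiescent cells in each tumour, beside 52.3% of all genes, and 12 of the 15 did with medians subtracted. At -1 or below in both tumours were 3 of the 15, beside 23.3% of all genes, and medians were -1.07 in SCC1 and -0.87 in SCC2 per the authors' deposited table. The 3 were Hnrnpa1, Pfas and Slc7a1. Hnrnpa1, a splicing factor, had -1.66 in SCC1 and -1.62 in SCC2 per the authors' deposited table, but it has many near-identical copies in the genome and its value is uncertain. Pfas, an enzyme of purine synthesis, had -1.08 in SCC1 and -1.33 in SCC2, and Slc7a1, a transporter of basic amino acids, had -1.07 and -1.28, per the authors' deposited table. Mthfd2, a mitochondrial folate enzyme, had -2.13 in SCC1 and -0.72 in SCC2 per the authors' deposited table. Other purine and pyrimidine genes had values of -1.19 and -0.92 for Ppat, -0.77 and -1.07 for Gart, -1.32 and -0.40 for Cad, and -0.78 and -0.87 for Ctps, in SCC1 and SCC2 of the authors' deposited table.

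In double negative cells 10 of these 15 targets fell against proliferative cells by limma, namely Odc1, Nme1, Mthfd2, Ppat, Gart, Pfas, Slc7a5, Fasn, Prmt1 and Hnrnpa1. The 10 of 15 are 66.7%, beside 30.3% of all genes called lower. By the size rule, 4 of the 15 were at -1 or below in both tumours, beside 25.2% of all genes. With medians subtracted 3 of the 15 passed, with a robust prior 7, and in the fit over all 3 populations 0. The amino acid transporter Slc7a5 had -1.42 in both tumours per the authors' deposited table (adjusted p = 0.0378 by limma). Odc1, the ornithine decarboxylase of polyamine synthesis and a classic MYC target, had -1.22 in SCC1 and -1.25 in SCC2 per the authors' deposited table (adjusted p = 0.0411 by limma). Against these, its quiescent against proliferative ratios of -1.04 in SCC1 and -0.92 in SCC2 per the authors' deposited table did not pass. Nme1 (-0.84 and -0.80 for double negative against proliferative cells in SCC1 and SCC2 of the authors' deposited table) has a close paralogue beside it and is uncertain too. The remaining named targets were Hspd1, Eif4e, Fasn and Prmt1, at quiescent against proliferative log2 ratios from -1.08 to -0.51 in either tumour.

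**Figure D3:**
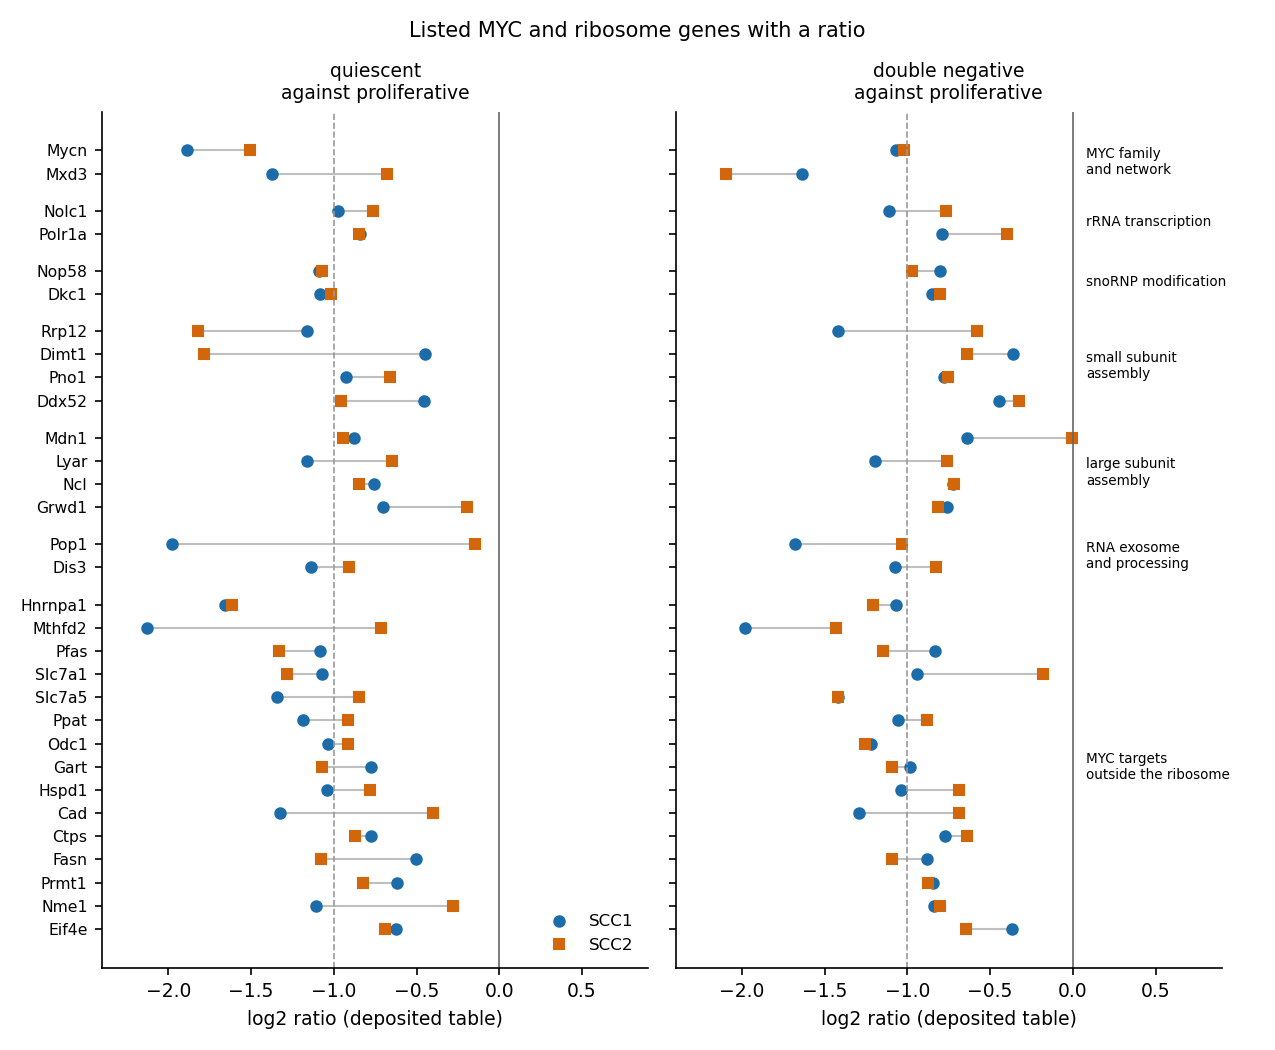
Deposited log2 ratio (horizontal axis) of the 31 listed MYC and ribosome genes with a row, circles for SCC1 and squares for SCC2, grouped by step, quiescent against proliferative cells at the left and double negative against proliferative cells at the right. All points lie below 0, and the distance between tumours is widest for Pop1, Mthfd2 and Dimt1 in the left panel.

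The genes whose 6 ratios lay nearest to those of each member, by Euclidean distance on the log2 scale, were found over all 6 columns. Dkc1 and Nop58 were near each other, at a distance of 0.222, and each was second nearest to the other. Smchd1 was nearest to Dkc1 at 0.148, and Pdik1l to Nop58 at 0.198. Mycn had Hnrnpa1 nearest at 0.396, then 4930422G04Rik at 0.491 and Bora at 0.522. Rrp12 stood farther from other genes, with Trim16 at 0.470, Terf1 at 0.768 and Chml at 0.778. Trim16, like Rrp12, had opposite signs in the tumours, with quiescent against double negative ratios of 0.13 in SCC1 and -0.92 in SCC2 per the authors' deposited table. These ratios were part of the distance by which Trim16 was found, so the likeness is no separate result. In that comparison 46.4% of all genes had the same sign in both tumours.

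The authors' mutation calls from RNA list Myc at 1 site, chr15:61987782 (mm10), in exon 2. The change is T to A in the genome, and it is T306A in the coding sequence and D102E in the protein of transcript NM_010849, a change of aspartate to glutamate. In the other 3 transcripts listed the protein change is D101E or D87E. Coding positions are counted from the first base of the start codon and protein positions from its residue. The Myc change was called in SCC1 and has no row for SCC2. The other 4 genes have no row among the 1426 of the table. SCC2 had 95 sites called in quiescent cells and 411 in proliferative cells. Its depth at the Myc position is not known, so the missing row does not show that the change is absent. In SCC1, 34% of 38 reads carried A in quiescent cells (exact 95% interval 19.6 to 51.4%), against 58% of 40 reads in proliferative cells (40.9 to 73.0%). The intervals overlap, and they cover counting error alone because reads that are PCR copies share a molecule. A two-sided Fisher exact test of these 2 libraries gave p = 0.0447 and an adjusted p of 0.513 over the 356 sites called in both SCC1 libraries, 4 of which had an adjusted p under 0.05. The test compares the libraries and not the conditions.

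Among the 356 shared SCC1 sites the share of the alternative base differed between quiescent and proliferative cells by a median of 0 percentage points, with the middle 50% between -6 and 7. The Myc difference was -24 points, and 13 sites (3.65%) had a difference as low or lower. Read depth at the Myc site in quiescent cells was 0.95 of that in proliferative cells, beside a median of 0.786 over the shared sites. Depth at a site is not scaled to library size, and this ratio stands in for no expression test. Changes between A:T and T:A, the kind found in Myc, made up 40.5% of 422 sites in SCC1 quiescent cells and 39.6% of 498 in SCC1 proliferative cells. Of the 250 listed MYC and ribosome genes, 18 have a mutation row, at 22 sites. Of these sites 17 were called in both tumours, and Myc is among the 4 with a call in SCC1 alone. The same shares over all genes and all sites were not counted, so these counts are no result about the listed genes. Depth in SCC2 is not known at sites without a call there.

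**Figure D4:**
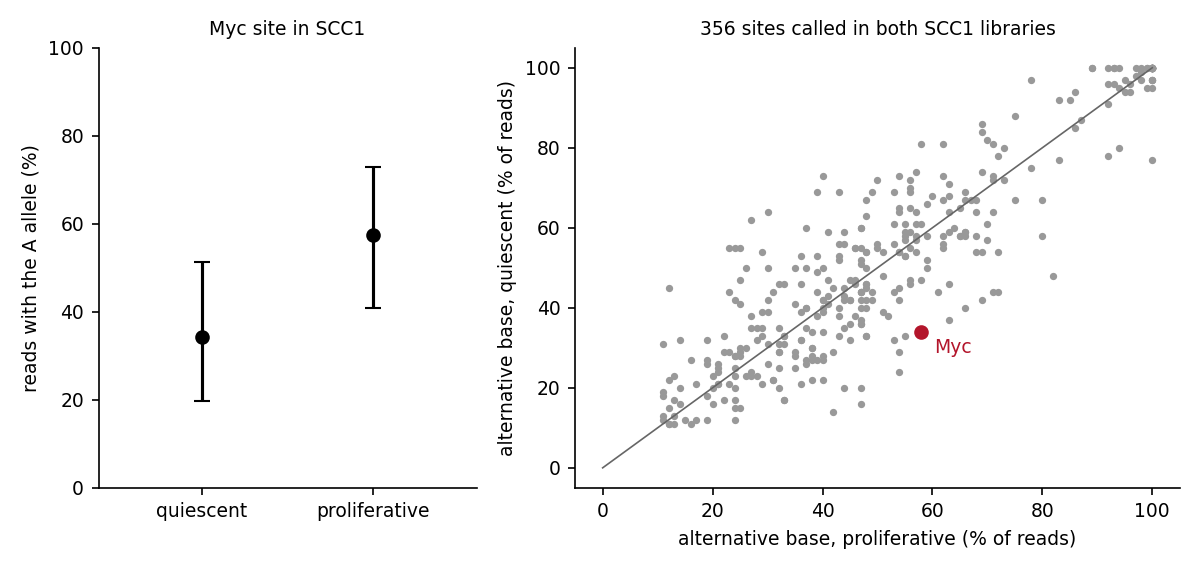
Left, the percent of reads with the A allele at the Myc site in SCC1 quiescent and proliferative cells with exact 95% intervals, which overlap. Right, the percent of the alternative base in quiescent cells (vertical) against proliferative cells (horizontal) at the 356 sites called in both SCC1 libraries, with the line of equality and with Myc marked below it at 34% and 58%.

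Copy number was called by the authors from input DNA of the cultured SCC1 and SCC2 cells, as whole copies per region. Myc lay in a region of 3 copies in both tumours, chr15:37300000-63200000 in SCC1 (25.9 Mb) and chr15:43200000-62100000 in SCC2 (18.9 Mb). These regions hold 86 and 62 protein-coding genes, so the gain is not of Myc alone. Rrp12 also lay in a region of 3 copies in both tumours, chr19:32300000-47100000 in SCC1 and chr19:10000000-43300000 in SCC2. Nop58 lay in a short gain of 3 copies, chr1:59600000-60400000 in SCC1 (0.8 Mb) and chr1:59600000-60200000 in SCC2 (0.6 Mb). No call covered Mycn or Dkc1 in either tumour. Gains were common, covering 42.9% of 21887 protein-coding genes in SCC1 and 40.8% in SCC2, and the 3 of 5 genes in a gain are to be read beside that share. Of 242 listed MYC and ribosome genes with coordinates, 48.3% in SCC1 and 49.6% in SCC2 were in a gain. These calls describe the cultured cells and not the sorted cells that gave the RNA. The populations of 1 tumour were not compared in copy number.

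Accessible chromatin was deposited as 1 merged list of 61553 ATAC peaks with no value per population, so populations were not compared there. The list is labelled as all peaks merged, and the ATAC samples include double positive cells and the Tgfbr2KO tumour SCC3. A listed peak therefore need not be open in the SCC1 or SCC2 populations that gave RNA. Myc, at chr15:61985341-61990361, had 8 peaks within 50 kb of the gene, 2 of them overlapping it, and no other protein-coding gene in that window. The first of the overlapping peaks, chr15:61984901-61985750, covers the lower end of the gene, and the second is chr15:61986901-61987400. The mutated site lies outside both. Rrp12, at chr19:41859483-41896153, also had 8 peaks, but its window holds 6 other protein-coding genes. Dkc1 (chrX:75095854-75109776) had 5 peaks, and Mycn (chr12:12936093-12941836) and Nop58 (chr1:59684961-59711510) had 3 each. The median over protein-coding genes was 5 with the middle 50% from 2 to 8, and 26.5% of genes had at least 8 peaks.

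Smad2/3 sites in TGFβ1-treated SCC1 cells numbered 6143 in the authors' list. The authors named the list as one of bound sites with a motif. Binding without the motif would not be in it, so a gene with no listed site may still be bound. Within 50 kb, Rrp12 was the 1 member with a site, and it had 2, where 30.8% of protein-coding genes had at least 1. The nearer, chr19:41857436-41857636, lay 1.85 kb below the lower end of Rrp12 and inside an ATAC peak. The strand of Rrp12 was not used, so this distance is not one to its start site. The 1 ATAC peak overlapping Rrp12, chr19:41895901-41896450, covers the upper end of the gene. The other, chr19:41935943-41936143, lay inside the gene Zdhhc16 and an ATAC peak, 2.52 kb from the exosome gene Exosc1. Myc had no site within 50 kb and 2 within 100 kb, the nearest at 71.5 kb. The nearest site lay 105 kb from Nop58, 405 kb from Dkc1 and 2421 kb from Mycn. The ChIP has 1 library, so the spread of these calls between samples is not known.

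**Figure D5:**
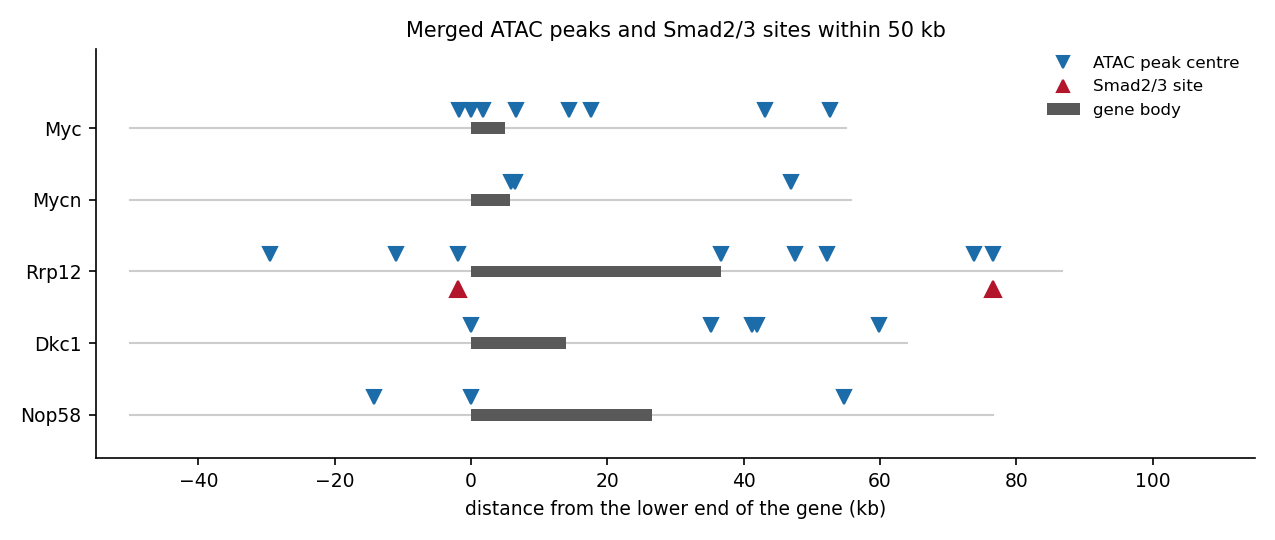
Positions of merged ATAC peak centres (downward triangles) and Smad2/3 sites (upward triangles) around the 5 genes, as distance in kb from the lower end of each gene, with the gene as a bar and the 50 kb window as a line. Myc and Rrp12 have 8 peaks each, and both Smad2/3 sites are near Rrp12, each at an ATAC peak.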

How the data were processed

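Per the submitters' processing notes, reads were placed on mm10 (mm9 is also named for double negative libraries), with TopHat2 2.0.9, Cufflinks 2.2.0 and Cuffdiff 2.2.0 for RNA, Bowtie for ATAC-seq, and Bowtie with Picard 1.88 for ChIP and input. The sources used here do not give the callers of peaks, mutations and copy number. The authors deposited log2 ratios between populations of a tumour, with no levels or q-values, so depth behind a ratio is unknown. The authors named the table of ratios as one of differentially expressed genes, and the sources used here do not give its rule. So limma's p-values and the shares of all genes describe 1609 chosen genes, perhaps chosen on these same ratios. The mutation table deposited by the authors gives a read count and a whole percent of reads per site, from which alternative reads were recomputed. A p-value per copy number region was deposited by the authors.

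The genes and the 12 lists were chosen with earlier results of these data known. The 2 tumours are the replicates, and nothing says how many animals each stands for. The limma fits treat SCC1 and SCC2 as independent, which was not tested. Of the 22 mutation sites in the listed MYC and ribosome genes, 17 were called in both tumours. Ratios were tested with limma 3.58.1 in R 4.3.3 (intercept fit on 2 ratios, all 1609 genes, Benjamini-Hochberg adjustment, threshold 0.05). A size count needs a log2 ratio of at least 1 in size with the same sign in both tumours. As a check of scaling, quiescent against proliferative minus the sum of the other ratios came to medians of 0.0394 (SCC1) and 0.0267 (SCC2). Named are the members, listed genes with a row up to 30 by mean size for quiescent against proliferative cells, the 3 genes nearest each member, Tfrc and Mki67. Other genes, such as Epcam, were named after their values were seen. Genes were placed with RefSeq on GRCm38.p6, the assembly that mm10 names. Overlap was at least 1 bp. Depth, where known, is the number of reads at a mutated site (a median of 42 in SCC1 quiescent and 52.5 in SCC1 proliferative cells). The main intercept fit alone was run on simulated data, drawn from limma's own model with independent columns. The alternative fits were not run on them. Scripts ran in Python 3.11.15 with pandas 2.3.3, numpy 2.4.6, matplotlib 3.10.9 and scipy 1.17.1.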

Additional observations from a re-analysis of the deposited data

Results flagged for a closer look

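In 10 of the 30 named list genes the quiescent against double negative log2 ratio had opposite signs in SCC1 and SCC2 in the authors' deposited table, a difference between tumours that was not tested. Over all 1609 genes 46.4% had the same sign in both tumours in this comparison, so opposite signs were more common in the whole table than among the 30. None of the 30 had opposite signs in quiescent or in double negative against proliferative cells, where 88.1% and 93.5% of all genes had the same sign in both tumours. Rrp12, the 1 member among them, had 0.2167 in SCC1 and -1.275 in SCC2. Pop1 had -0.3388 and 0.8516, Mthfd2 had -0.1849 and 0.689, and Nme1 had -0.3087 and 0.4949 in SCC1 and SCC2, so these 3 went the other way from Rrp12. The remaining ratios were small in at least 1 tumour. Fasn had 0.3398 in SCC1 and -0.0204 in SCC2, Gart had 0.1697 and -0.0077, and Nolc1 had 0.0987 and -0.0201. Cad had -0.0699 in SCC1 and 0.2562 in SCC2, Pno1 had -0.1851 and 0.0819, and Lyar had -0.0012 and 0.0911.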

How the results depend on the processing

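No paired analysis was possible because the deposited values are already ratios within each tumour, beyond limma's fit to those ratios, which is itself paired by tumour, and a further replicate block has nothing left to remove. The direction of the 4 mean ratios was the same under every alternative run, except for Rrp12 in quiescent against double negative cells, which was 0.22 in SCC1 alone and -1.27 in SCC2 alone. The range of the members' adjusted limma p is given above, and with a robust prior Dkc1 (0.0509) and Nop58 (0.0507) lost the call in double negative against proliferative cells. Counts past limma's threshold were 16, 770 and 7 for quiescent against proliferative, double negative against proliferative and quiescent against double negative cells. In a fit over all 3 populations the first was 8 and the second 6, and the cause was not tested. Without genes within 0.1 of the limit of 12 in size or beyond it, an alternative chosen after seeing the data, the first was 0 and the third 0, and the count past a size of 1 in the third was 38. Past a size of 1 in both tumours were 557, 656 and 58 genes. These became 1417, 1504 and 746 at any size with the same sign, 1147, 1211 and 178 at 0.5, and 104, 225 and 20 at 2. With 1 tumour left out they ranged over 879 to 1021, 849 to 941 and 342 to 416. Members at -1 or below in both tumours, 4, 1 and 0, became 4, 4 and 3 at any size, 4 in the second comparison at 0.5, 0 in the first and 0 in the second at 2, and 1 in the first and 0 in the second with medians subtracted. With 1 tumour left out they were 4 in the first, 1 to 2 in the second and 0 to 1 in the third. List genes, 7, 7 and 0, became 31, 31 and 16 at any size, 25 in the first and 25 in the second at 0.5, 0 in both at 2, and 2 in the first and 3 in the second with medians subtracted. With 1 tumour left out they ranged over 10 to 18, 10 to 14 and 0 to 3. ATAC counts moved with the window: within 10 kb and 100 kb Myc had 5 and 14 peaks, Rrp12 2 and 18, Dkc1 1 and 8, Nop58 1 and 5. With 1 library per population and tumour, no spread within a tumour is known.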
